A study of Mus musculus with 4 samples.

Results

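The IRAK kinases, TRAF6 and MyD88 form the core of the pathway that runs from the IL-1 receptor family and the Toll-like receptors to NF-kB. The probe sets described here are those whose single gene symbol is Irak1, Irak2, Irak3, Irak4, Traf6 or Myd88, and they number 13 of the 45037 probe sets on the array that are not controls. Irak1 had 4 of them, Irak2 had 1, Irak3 had 2, Traf6 had 5 and Myd88 had 1, and Irak4 is not analysed here. Of the 13, 11 lay above a filter on dim probe sets, a mean signal of about 29.9, and were tested. The 2 below it, Irak3 1430704_at and Traf6 1446940_at, are given as values only.

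RNA came from CD4 T cells of 2D2 mice, whose transgenic T cell receptor recognises a peptide of myelin oligodendrocyte glycoprotein. One genotype was wildtype and the other miR-146a-deficient, both on the 2D2 Tg background, with 2 arrays each, and the ages of the animals are not given in the sources used here. Naive cells were sorted and then stimulated for 3 days with plate-bound anti-CD3 at 5 µg/ml and with anti-CD28 at 1 µg/ml, which 1 label calls soluble. The labels call the replicates biological without naming the mouse or culture of each, so p-values measure the spread between these samples. Every value below is a MAS5 signal, the linear brightness of a probe set on the Affymetrix Mouse Genome 430 2.0 array, or a log2 difference of deficient minus wildtype. Brightness depends on the probes, so no gene is called more or less abundant than another, and within a gene brightness was used only to choose 1 probe set where a single one had to stand for the gene.

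When a ligand binds, the receptor recruits the adaptor MyD88, which gathers IRAK4 and then IRAK1 and IRAK2. These activate the ubiquitin ligase TRAF6, which in turn switches on the TAK1 and IKK kinases and NF-kB. IRAK3, also called IRAK-M, restrains the pathway and is known mainly from monocytes and macrophages. miR-146a is itself induced by NF-kB, and Irak1 and Traf6 are its best known targets, a feedback loop described in both myeloid cells and T cells. In T cells TRAF6 is also known to act downstream of the antigen receptor, through MALT1.

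The missing microRNA is shown first because its seed, bases 2 to 8 in capitals, is the stretch that pairs with target transcripts. The sequences are RefSeq's for the build GRCm38.p6, written 5′ to 3′. miR-146a-5p lies at chr11:43374435-43374456 on the minus strand. The related miR-146b-5p lies at chr19:46342790-46342811 on the plus strand, in a gene of its own that the labels do not list as deleted.
mmu-miR-146a-5p: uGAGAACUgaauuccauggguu
mmu-miR-146b-5p: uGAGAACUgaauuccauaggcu
Both have the same seed, and of the 1679 mature mouse microRNAs in the table only these 2 have it. They are identical at 20 of 22 positions and differ at positions 18 and 21, counted from the 5′ end and outside the seed. In the hairpin from which miR-146a is cut, at chr11:43374397-43374461 on the minus strand, the capitals mark the 5p arm above and the 3p arm opposite it.
Mir146 hairpin: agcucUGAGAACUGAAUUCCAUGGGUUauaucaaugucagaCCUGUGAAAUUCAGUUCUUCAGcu
Mir146 and Mir146b each have 0 probe sets under their own symbol, so neither the loss of miR-146a nor the level of miR-146b was measured. Target sites in the transcripts of the 5 genes were not analysed here.

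The arrays were close to each other over the 27022 tested probe sets, with r across probe sets of 0.983 within the wildtype, 0.984 within the deficient pair and 0.981 to 0.983 between genotypes. CD4 T cell markers were present, and 8 of the 9 listed genes had a probe set. Their signals summed to 46168 and 54225 in the wildtype and to 48286 and 52140 in the deficient samples, and none of their 10 tested probe sets passed (limma, 0 with an unadjusted p below 0.05). Cd4 itself was a small part of these sums. Its probe set 1427779_a_at read 106 and 118 in the wildtype and 44.4 and 99.5 in the deficient arrays. The log2 difference there was -0.63 ± 0.34 (SE). On Cd4 1419696_at the signals were 605 and 655 in the wildtype and 462 and 725 in the deficient arrays, a difference of -0.12 ± 0.20. The B cell markers differed between genotypes. Their summed signal over 7 genes was 895 and 1283 in the wildtype and 3076 and 4122 in the deficient arrays. In limma 4 of 11 tested probe sets, of Blnk, Ms4a1 and Cd22, were called higher, beside 0.148% of all tested probe sets. All 11 were higher on average, though Ebf1 1439789_at and Cd22 1419769_at passed the filter only through the deficient arrays. The calls were lost, at 0 of 11, without the intensity trend of the limma fit (9 with an unadjusted p below 0.05), where 0 of all 27022 passed. They were also lost without the filter, at 0 of 14 (6 with an unadjusted p below 0.05), where 4 of all 45037 passed. Without deficient replicate 2 the median difference of the 11 was 0.83, beside 0.86 with all arrays. Of the CD8 T and NK cell markers, 4 of 5 genes had a probe set, 0 of 6 tested probe sets passed and 1, of Klrd1, had an unadjusted p below 0.05; the list summed to 950 and 974 in the wildtype and 978 and 1267 in the deficient samples. Sorting for naive CD4 T cells, as the labels describe, would remove both B cells and CD8 T or NK cells. In bulk RNA, fewer cells of a type and less RNA per cell cannot be told apart.

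None of the 11 tested probe sets of the pathway core reached an adjusted p of 0.05 in limma's moderated fit, where 0.167% of all tested probe sets did (45 of 27022). Of these 40, or 0.148%, were higher and 5, or 0.0185%, lower in the deficient arrays. At an unadjusted p below 0.05 there was 1 of 11, Irak1 1438120_x_at, against 5.45% of all tested probe sets. Of the 11, 8 were lower and 3 higher on average in the deficient arrays, and the median difference was -0.11, beside -0.03 over all tested probe sets, of which 55.7% were lower. Arrays of the genotypes did not overlap in 2 of the 11, Irak1 1438120_x_at and Irak3 1435040_at, against 34.1% of all tested probe sets. The second of these passed the filter only through its deficient arrays, so its lack of overlap supports nothing. With 1 value per gene, 0 of the 5 genes passed, either by the brightest probe set (0.179% of 12821 genes passed) or by the mean of the tested probe sets (0.234%), and at an unadjusted p below 0.05 Irak1 alone was found in each (5.26% and 5.89% of genes). The brightest Irak1 probe set is 1438120_x_at, which also enters the mean, so the 2 fits are not separate readings of Irak1. With 2 arrays against 2, an exact permutation test cannot go below p = 0.333.

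**Figure D1:**
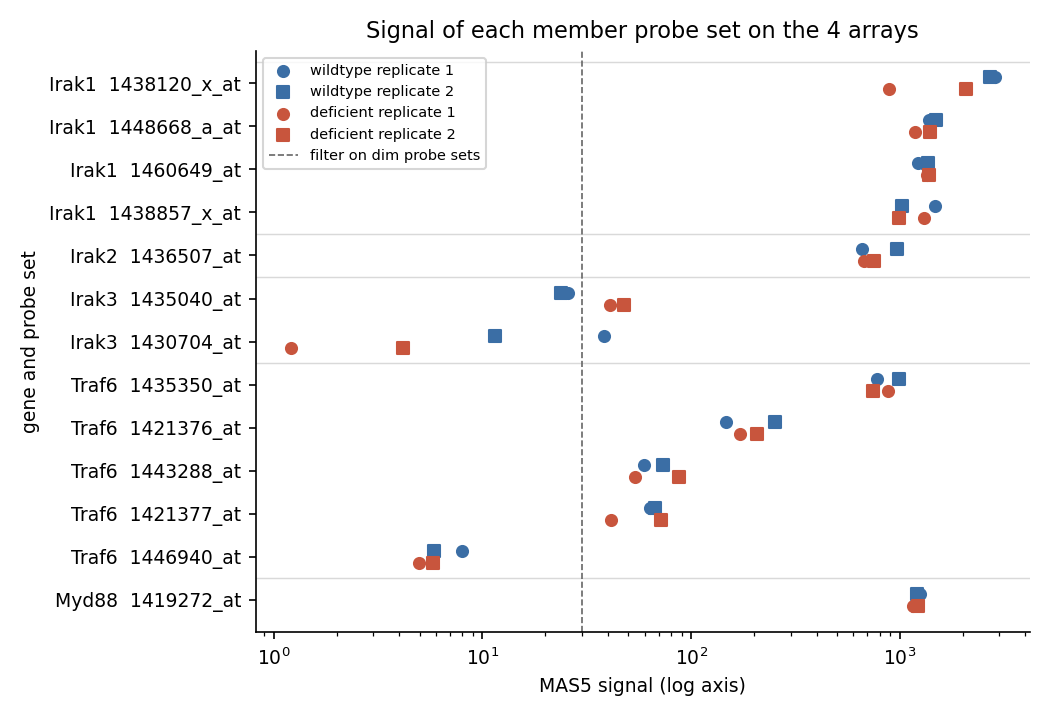
Each row is 1 of the 13 probe sets of Irak1, Irak2, Irak3, Traf6 and Myd88, and each point is the MAS5 signal on 1 of the 4 arrays, on a log axis; wildtype arrays are blue, deficient arrays red, and the dashed line is the filter, which was applied to the mean over arrays. The points of the genotypes lie close together in most rows, while Irak1 1438120_x_at has 1 deficient array at 885 and Irak3 is near or below the filter in both of its rows.

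Myd88, the adaptor that links the receptors to the IRAK kinases, had the closest values of all members. Its probe set 1419272_at read 1247 and 1209 in wildtype cells and 1161 and 1218 in deficient cells. The genotypes overlapped, and the 4 arrays lay within a narrow band. The means were 1228 ± 27 and 1190 ± 41 (SD, n = 2 each). The log2 difference was -0.05 ± 0.11 (SE), with a 95% interval from -0.29 to 0.20 and an adjusted p of 0.989 in limma.

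Irak1, the kinase recruited to the receptor complex and an established miR-146a target, was read by 4 probe sets that did not give the same picture. On 3 of them the genotypes overlapped and no difference passed. Probe set 1448668_a_at read 1377 and 1500 in the wildtype and 1184 and 1390 in the deficient arrays, a log2 difference of -0.16 ± 0.12 (95% interval -0.44 to 0.12). Probe set 1460649_at read 1221 and 1364 in the wildtype and 1356 and 1384 in the deficient arrays, a difference of 0.08 ± 0.11 (95% interval -0.17 to 0.34). In the annotation these 2 share the accession BE949425, so they are not independent readings of the gene. Probe set 1438857_x_at read 1476 and 1022 in the wildtype and 1305 and 995 in the deficient arrays, a difference of -0.11 ± 0.19 (95% interval -0.55 to 0.33). Its spread within each genotype was larger than the difference between them. The highest upper bound of these 3 intervals, the largest rise in deficient cells that any of them includes, was 0.34.

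The fourth, 1438120_x_at, was lower in both deficient arrays than in the wildtype arrays, and the size of the difference depended on 1 of them. It read 2848 and 2712 in wildtype cells, but 885 in deficient replicate 1 and 2077 in deficient replicate 2. The genotypes did not overlap, the wildtype pair was tight, and the deficient arrays were 1.22 apart on the log2 scale. The means were 2780 ± 96 and 1481 ± 843 (SD, n = 2 each), and the deficient mean was 53.3% of the wildtype mean. The log2 difference was -1.03 ± 0.31 (95% interval -1.74 to -0.31), with an unadjusted p of 0.0106 and an adjusted p of 0.680 in limma. Without deficient replicate 2 it was -1.63 and passed (adjusted p = 0.00694), with 1 deficient array left and only the wildtype pair giving the spread. Without deficient replicate 1 it was -0.42 (adjusted p = 0.694). Leaving out wildtype replicate 1 gave a difference of -0.99, and leaving out wildtype replicate 2 gave -1.06. In the alternatives that kept all arrays, the adjusted p in limma was 0.317 to 0.874. Beside this, the 3′ to 5′ signal ratio of the transferrin receptor control, a sign of RNA quality, was 2.40 and 2.74 in the wildtype and 1.92 and 2.23 in deficient replicates 1 and 2, where the genotypes did not overlap. The same ratio was 0.778 and 0.808 against 0.746 and 0.778 for Gapdh, where the nearest arrays of the genotypes were equal after rounding, and 1.17 and 1.30 against 1.14 and 1.25 for beta-actin, whose genotypes overlapped. The part of RNA quality in the Irak1 value was not tested.

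**Figure D2:**
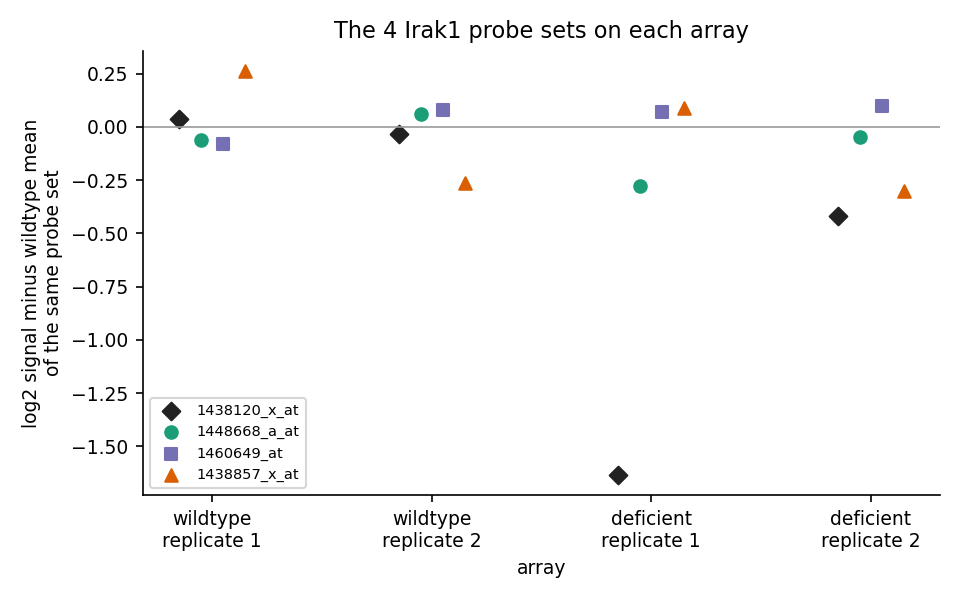
For each of the 4 Irak1 probe sets, the log2 signal on each array is plotted as its difference from the wildtype mean of the same probe set. On deficient replicate 1 the probe set 1438120_x_at stands at -1.63 while the other 3 lie between -0.28 and 0.09, and on deficient replicate 2 it stands at -0.42 while the other 3 lie between -0.30 and 0.10.

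The suffix _x_at marks probe sets in which some probes may also match other transcripts, and 1438120_x_at and 1438857_x_at both carry it. Among the 2260 tested probe sets with a mean log2 signal within 0.5 of 1438120_x_at, a gap between the deficient arrays at least as large was found in 2, the Irak1 probe set itself and 1438832_x_at of Dhx30, which encodes a putative RNA helicase. Both are among the 152 of these probe sets that end in _x_at. The Dhx30 probe set was found by its values; it read 2337 and 1042 in the wildtype and 865 and 2039 in deficient replicates 1 and 2. Its wildtype arrays were thus also far apart, unlike those of Irak1. A genotype difference at least as large as that of the Irak1 probe set, in either direction, was found in 8 of the 2260, or 0.354%, itself included. These were 3 of the 152 that end in _x_at, or 1.97%, and 5 of the 2108 that do not, or 0.237%. Over all tested probe sets the share was 1.59%. The Irak1 probe set was singled out by these same values, so the shares only describe it. Whether its probes match other transcripts was not tested.

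The disagreement between the Irak1 probe sets was also tested directly, as the log2 signal of the brightest probe set minus the mean of the gene's other tested probe sets. For Irak1 this was 1.06 and 1.08 in the wildtype arrays, -0.52 in deficient replicate 1 and 0.74 in deficient replicate 2. The genotypes did not overlap, and deficient replicate 1 was the only array with a value below 0. The change was -0.96 ± 0.37 (95% interval -1.83 to -0.10), with an unadjusted p of 0.0334 and an adjusted p of 0.989. By p, Irak1 stood at place 189 of 5826 genes with at least 2 tested probe sets, of which 0 passed limma's adjusted p of 0.05 and 277, or 4.75%, had an unadjusted p below 0.05. That the Irak1 probe sets disagree was known from earlier results of these data, so this gives the size of the disagreement and no independent support for it. When the log2 values of all 4 probe sets were averaged, Irak1 differed by -0.30 ± 0.12 (95% interval -0.57 to -0.03). In limma the unadjusted p was 0.0327 and the adjusted p 0.813. This average includes 1438120_x_at at -1.03, while the other probe sets differed by -0.16, 0.08 and -0.11.

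Irak2, a kinase-like partner of IRAK1 that sustains TRAF6 activation, was read by 1 probe set. Probe set 1436507_at read 660 and 967 in the wildtype and 672 and 750 in the deficient arrays. Both deficient values lay between the wildtype values. The log2 difference was -0.17 ± 0.18 (95% interval -0.58 to 0.25; adjusted p = 0.970). Without wildtype replicate 2 it turned to 0.10 (adjusted p = 0.962).

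Irak3, the inhibitory family member, was dim throughout, and its probe sets went opposite ways. Probe set 1435040_at read 25.6 and 23.8 in the wildtype and 41.0 and 47.8 in the deficient arrays. Both wildtype values are below the filter, and the probe set was tested only because its deficient arrays lifted the mean. The genotypes did not overlap, and the log2 difference was 0.58 ± 0.37 (95% interval -0.26 to 1.43; adjusted p = 0.952). Because small signals are compressed by the pseudocount of 14.7, the same values gave 0.82 with a pseudocount of 1 (adjusted p = 0.952). Probe set 1430704_at, below the filter, read 38.1 and 11.5 in the wildtype and 1.21 and 4.15 in the deficient arrays, also without overlap but in the other direction, a log2 difference of -1.10 that became -2.72 with a pseudocount of 1. At these brightness levels no direction can be given for Irak3.

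Irak3 is known from myeloid cells, and many of their listed markers were also dim here. Others were not: Cd68 read 194 and 216 in the wildtype and 151 and 218 in the deficient arrays. Of the 8 macrophage and monocyte markers, Cd14, Mrc1 and Itgam lay below the filter. The list's summed signal was 578 and 570 in the wildtype and 471 and 545 in the deficient arrays, and 0 of its 7 tested probe sets passed (0 with an unadjusted p below 0.05). All 6 neutrophil markers lay below the filter. Of the 5 dendritic cell markers with a probe set, Itgax, Flt3, Xcr1 and Siglech did too, and the list summed to 354 and 204 in the wildtype and 184 and 251 in the deficient arrays. The fifth, Zbtb46, had 3 tested probe sets, with differences of 1.41, 0.41 and -0.04, and 0 passed in limma. The B cell markers, as given above, were higher in the deficient arrays, in the same direction as Irak3 1435040_at, and their part in that value was not tested.

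Traf6, the ubiquitin ligase that carries the signal from the IRAK kinases to TAK1 and the second classic target of miR-146a, showed no difference past the spread of its arrays. Its brightest probe set, 1435350_at, read 777 and 988 in the wildtype and 881 and 749 in the deficient arrays. The genotypes overlapped, with means of 883 ± 149 and 815 ± 94 (SD, n = 2 each). The log2 difference was -0.11 ± 0.15 (95% interval -0.46 to 0.24; adjusted p = 0.979).

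The dimmer Traf6 probe sets gave wider intervals around similar values. Probe set 1421376_at read 147 and 253 in the wildtype and 171 and 206 in the deficient arrays, so that the wildtype pair spanned the deficient pair. Its difference was -0.04 ± 0.26 (95% interval -0.64 to 0.56). Probe set 1421377_at, listed under the same accession BG916928, read 63.6 and 67.2 in the wildtype and 41.2 and 71.6 in the deficient arrays. In it the deficient arrays lay on either side of the wildtype arrays, and the difference was -0.21 ± 0.33 (95% interval -0.96 to 0.55). Probe set 1443288_at read 59.5 and 73.0 in the wildtype and 53.6 and 87.5 in the deficient arrays, a difference of 0.05 ± 0.32 (95% interval -0.68 to 0.78). Probe set 1446940_at was far below the filter, at 7.94 and 5.85 in the wildtype and 4.98 and 5.76 in the deficient arrays.

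The Traf6 probe sets differ widely in brightness on every array, and the brightest minus the mean of the other tested probe sets was 3.01 on both wildtype arrays and 3.33 and 2.61 on the deficient arrays. Between genotypes it changed by -0.04 ± 0.27 (95% interval -0.67 to 0.58; adjusted p = 0.999), and the difference between the 2 genes was not tested. The mean over the 4 tested Traf6 probe sets differed by -0.08 ± 0.20 (95% interval -0.53 to 0.38). With 1 array left out, the sign of the difference turned in each of the 4 tested Traf6 probe sets for at least 1 choice of array, and quantile normalization or median centring turned that of 1421376_at, to 0.01 and 0.002.

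**Figure D3:**
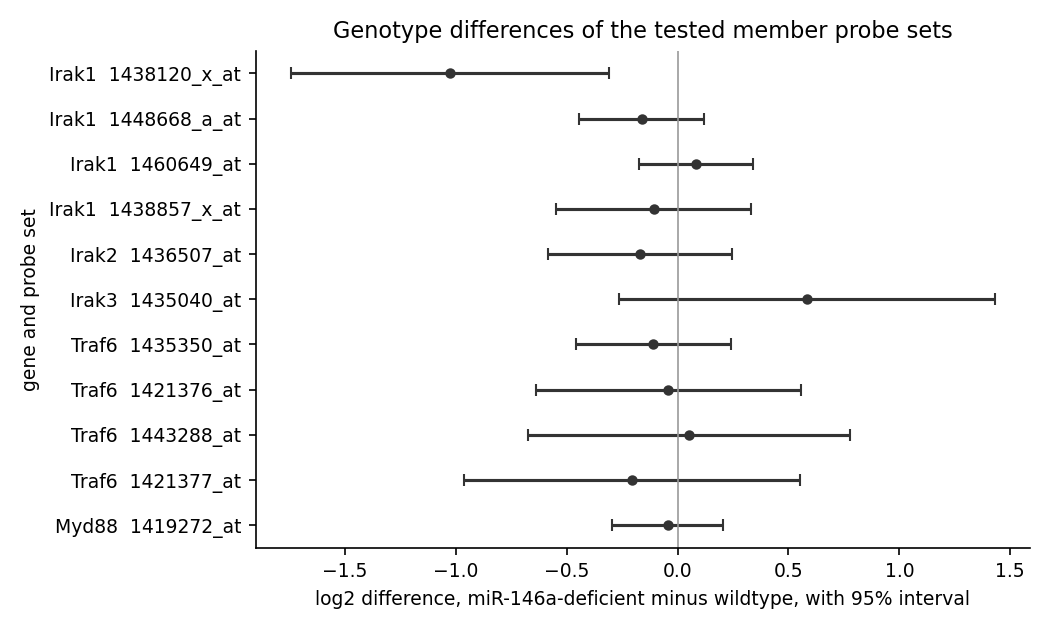
Points are log2 differences, deficient minus wildtype, of the 11 tested probe sets, and bars are 95% intervals from limma's moderated fit over 4 arrays. The intervals include 0 in every row other than Irak1 1438120_x_at (-1.74 to -0.31), whose adjusted p was 0.680, and they are narrowest for Myd88 and for Irak1 1460649_at and widest for the dim Irak3 probe set.

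The genes whose arrays most resembled each member were found by the distance between mean-centred log2 values over 4 arrays, among 22798 tested probe sets of other genes with a single symbol. For the brightest Irak1 probe set these were Zfp644 (distance 0.118) and Fbxo32 (0.146), both dim, with signals of 5.77 and 12.0 in deficient replicate 1. For Irak3 they were St8sia4 (0.0425) and Cd8a (0.0598), for Irak2 Tceal1 (0.0394) and Gnal (0.0510). For Traf6 they were Plin2 (0.0148) and Akap8 (0.0260), and for Myd88 Nap1l1 (0.0051) and Blzf1 (0.00865). These distances over 4 arrays only describe likeness in these samples.

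The rest of the pathway was followed through 8 lists with 87 genes, of which 75 had a probe set and 66 were tested with 126 probe sets. None of the 126 passed limma's adjusted p of 0.05, beside 0.167% of all tested probe sets. At an unadjusted p below 0.05 there were 13, or 10.3%, against 5.45% over the array, and 5 of the 13 were NF-kB outputs. In 7 of the 126, with 1 of the 13, only 1 genotype had a mean above the filter. The median over all 126 was -0.01, beside -0.03 over all tested probe sets.

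At the top of the pathway, many ligands were dim, though Il18 read 127 and 135 in the wildtype and 116 and 200 in the deficient arrays. The IL-1 family ligands had 4 genes tested, Il1a and Il33 lay below the filter, and none of 6 probe sets had an unadjusted p below 0.05 (median difference -0.16). Il18bp, the decoy that binds IL-18, read 37.9 and 16.1 in the wildtype and 83.7 and 41.3 in the deficient arrays, and passed the filter only through the latter. Il1rn, the IL-1 receptor antagonist, passed it only through the wildtype arrays on 1423017_a_at, and its other probe sets, 1451798_at and 1425663_at, differed by -0.27 ± 0.24 and -0.37 ± 0.34. Il18 itself differed by 0.21 ± 0.27.

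Among the IL-1 and IL-18 receptors 6 genes were tested, and Il1r1, the signalling IL-1 receptor, lay below the filter. The 9 probe sets had a median difference of 0.01, and 1 had an unadjusted p below 0.05. This was Il1r2, the decoy receptor of IL-1, at 127 and 110 in the wildtype and 164 and 182 in the deficient arrays, a difference of 0.50 ± 0.21 (adjusted p = 0.907). Sigirr, an inhibitory receptor of the family, was bright and differed by -0.13 ± 0.11, and Il1rl2, the IL-36 receptor, by -0.46 ± 0.30.

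Many of the Toll-like receptors were dim. Of 11 with a probe set, Tlr3, Tlr4, Tlr8, Tlr12 and Tlr13 lay below the filter and 6 were tested, and Tlr7 and Tlr9 passed the filter only through their deficient arrays, so the list's median of 0.12 is no support for a shift. Tlr7, an endosomal receptor for single-stranded RNA, read 4.83 and 14.9 in the wildtype and 78.3 and 94.9 in the deficient arrays. Both wildtype values are below the filter, so no exact difference is drawn from them; the fit did not call the probe set with all arrays (adjusted p = 0.182), and did so when wildtype replicate 2 was left out (adjusted p = 0.0311), with 1 wildtype array left and only the deficient pair giving the spread. Tlr9, which recognises DNA, read 52.7 and 12.5 in the wildtype and 66.0 and 46.1 in the deficient arrays, and its genotypes overlapped. Tlr6 differed by -0.38 ± 0.34. Tlr7 and Tlr9 are also expressed by B cells, whose listed markers were higher in the deficient arrays as given above, and the part of these cells in the values was not tested.

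Of the TIR adaptors other than Myd88, Ticam1, the adaptor known as TRIF, differed by -0.14 ± 0.19 and Tirap, which bridges MyD88 to the receptor, by -0.03 ± 0.26 on 1418685_at. Sarm1, a TIR protein with NADase activity, read 149 and 127 in the wildtype and 99.6 and 35.7 in the deficient arrays. Its groups did not overlap, and the difference of -1.01 ± 0.38 did not pass (adjusted p = 0.855). Its other probe set, 1445644_at, passed the filter only through the wildtype arrays, and there the genotypes overlapped.

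Downstream of TRAF6 the values were closer. The partners and kinases of this step had 36 tested probe sets from 14 genes with a median difference of -0.07, 12 higher and 24 lower, and 1 with an unadjusted p below 0.05. Ecsit, an adaptor that binds TRAF6, differed by 0.29 ± 0.12 (adjusted p = 0.903). Ube2v1, which encodes the partner of the ubiquitin-conjugating enzyme used by TRAF6, differed by 0.20 ± 0.10 on 1415755_a_at and by 0.06 ± 0.10 on its other tested probe set. Ikbkg, the regulatory subunit of IKK, had 6 tested probe sets from -0.37 ± 0.19 to 0.21 ± 0.14, of which the other four gave -0.36, -0.07, -0.04 and 0.03.

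On the antigen receptor side, Malt1, the protease and scaffold that recruits TRAF6 in stimulated T cells, was lower on average in both of its probe sets that lay above the filter in both genotypes. Probe set 1456126_at read 2219 and 2548 in the wildtype and 1853 and 1925 in the deficient arrays. The groups did not overlap, and the difference of -0.33 ± 0.11 had an unadjusted p of 0.0161 and an adjusted p of 0.752. Probe set 1456429_at gave -0.39 ± 0.18 (adjusted p = 0.922), and 1445068_at, at 40.3 and 69.6 in the wildtype and 30.5 and 28.2 in the deficient arrays, passed the filter only through the wildtype. Prkcq, the kinase PKC-theta upstream of MALT1, differed by -0.29 ± 0.12 (adjusted p = 0.885), and Bcl10, the partner of MALT1, by 0.13 ± 0.12 on 1443524_x_at and by -0.11, 0.04 and 0.005 on its other 3 probe sets. The list's 9 probe sets had a median of -0.11, with 2 below an unadjusted p of 0.05.

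The inhibitors of the pathway, 29 probe sets of 13 genes, had a median of -0.05 and 2 with an unadjusted p below 0.05, in opposite directions. Otulin, which removes linear ubiquitin chains, read 2431 and 2380 in the wildtype and 3054 and 3039 in the deficient arrays. Its pairs were tight and separate, and the difference of 0.34 ± 0.10 had an adjusted p of 0.576. Otud7b, another deubiquitinase, differed by -0.49 ± 0.17 on 1429139_at (adjusted p = 0.818) and by -0.17, -0.09 and 0.04 on its other 3 tested probe sets. Tollip, which binds IRAK1, differed by 0.54 ± 0.36 on its dim probe set 1423048_a_at and by -0.04 ± 0.11 on 1423047_at.

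Among the NF-kB outputs, 26 probe sets of 16 genes, 20 were higher and 6 lower in the deficient arrays, with a median of 0.10, and 0 passed. Over all tested probe sets 55.7% were lower. Several of these genes have more than 1 probe set, so the 26 are not independent readings. Ccl3, a chemokine gene, read 1124 and 1884 in the wildtype and 2623 and 2780 in the deficient arrays, a difference of 0.89 ± 0.21 (adjusted p = 0.356). Without wildtype replicate 2, with 1 wildtype array left and only the deficient pair giving the spread, it was 1.25 and passed (adjusted p = 8.9e-05). The related Ccl4 differed by 0.37 with all arrays (adjusted p = 0.945), its genotypes overlapping, and by 0.74 in that same setting (adjusted p = 0.0452). Traf1, an adaptor induced by NF-kB, differed by 0.36 ± 0.10 on 1423602_at (adjusted p = 0.550) and by 0.09 ± 0.12 on 1445452_at. Nfkbie, the inhibitor IkB-epsilon, differed by 0.56 ± 0.17 on 1458299_s_at (limma adjusted p = 0.705) and by 0.37 ± 0.20 on 1431843_a_at. The first read 926 and 915 in the wildtype but 1124 and 1650 in the deficient arrays, which were 0.55 apart on the log2 scale. Nfkbia, the inhibitor IkB-alpha and an early NF-kB target, had 5 tested probe sets, from -0.13 on 1420089_at to 0.10 on 1448306_at. The B cell markers were higher in the same arrays. Higher on average there, without passing, was Klrd1, a receptor of NK and cytotoxic T cells, at 186 and 119 in the wildtype against 245 and 250 (limma adjusted p = 0.768). The 4 tested Cd8a probe sets went both ways. Of these, 1425335_at read 49.6 and 48.1 against 79.4 and 88.9 (limma adjusted p = 0.912), and 1444078_at differed by 0.42. The others, 1451673_at and 1440164_x_at, differed by -0.08 and -0.71. Cd8b1 read 707 and 767 in the wildtype against 644 and 888, a difference of 0.04. The part of these cells in the values was not tested.

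**Figure D4:**
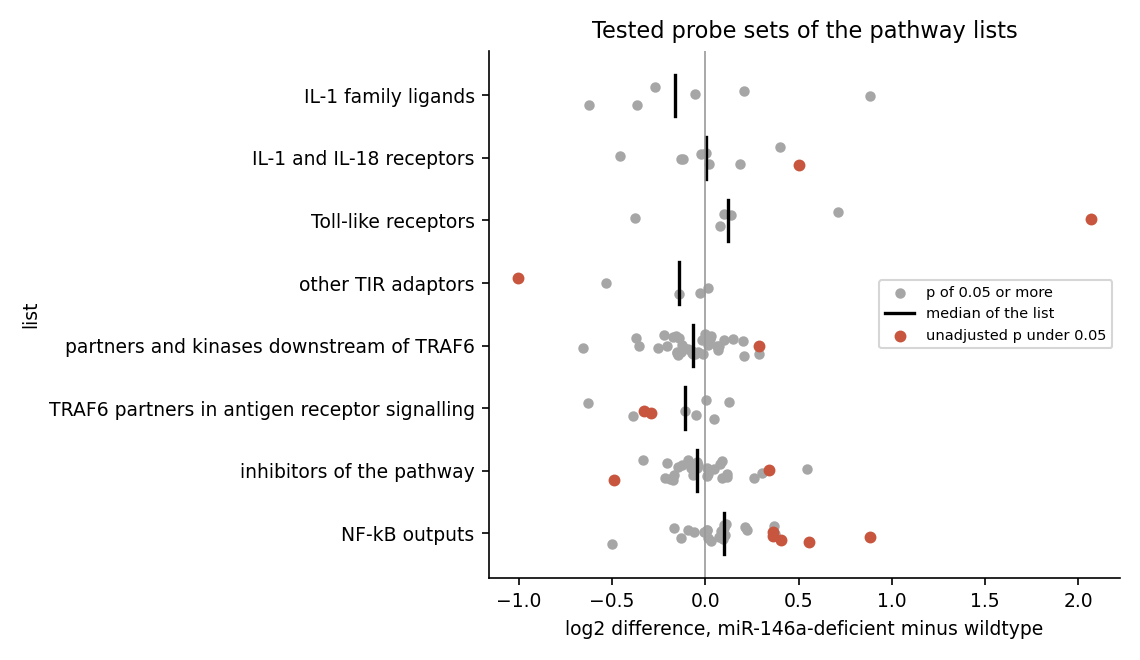
Each point is the log2 difference, deficient minus wildtype, of 1 of the 126 tested probe sets in the 8 pathway lists, red where the unadjusted p was below 0.05, and the vertical bar is each list's median. No point passed an adjusted p of 0.05; the medians lie between -0.16 and 0.12, and the points farthest from 0 are Tlr7, which passed the filter only through its deficient arrays, and Sarm1 at -1.01.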

How the data were processed

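The values the authors deposited are linear intensities, 1 for each probe set on each array. MAS5 is the method given in the submitters' processing notes, with the Transcriptome Analysis Console. Each array has a 2% trimmed mean of 500 in the deposited table. Detection calls and scan batches were not used here. Of 45101 probe sets, 64 controls were left out; 34945 have 1 symbol, 932 several and 9160 none in the platform annotation. The 5 member gene IDs matched GRCm38.p6, with 0 symbols updated.

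Signals were transformed as log2(signal + 14.7), the 25th percentile of all values, which understates differences of dim probe sets. Probe sets whose mean log2 reached the 40th percentile (5.48) entered a fit in limma 3.58.1 under R 4.3.3, by lmFit and then eBayes with a trend on intensity (8.39 degrees of freedom, 2 of them residual). Tests were two-sided and p-values were adjusted by Benjamini-Hochberg across every tested probe set. The script was tested on simulated data. Precision is limited by the number of arrays. Alternatives covered pseudocount, filter, normalization, trend, replicate block, each array left out, and fits per gene. Members and lists were chosen with earlier results of these data known. Named were all member probe sets, the 3 genes with the smallest p per pathway list and the 2 nearest profiles per member; Ccl4, Nfkbia, Dhx30 and Pcnt, and second probe sets of named genes, were chosen after their values were seen.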

Additional observations from a re-analysis of the deposited data

How the results depend on the processing

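Over 12 alternative settings, 129 differences of the 11 tested member probe sets were computed; 116 kept their direction and their side of the threshold, 12 turned sign without passing, and 1, Irak1 1438120_x_at without deficient replicate 2, passed in the same direction. The filter at the 60th percentile left fewer than 11 to test. Quantile normalization and median centring turned Traf6 1421376_at (0.014 and 0.0016). With 1 array left out, differences ranged across 0 for Irak1 1438857_x_at (-0.37 to 0.16), Irak2 1436507_at (-0.44 to 0.10), Traf6 1421376_at (-0.40 to 0.32), Traf6 1421377_at (-0.52 to 0.11), Traf6 1435350_at (-0.28 to 0.062), Traf6 1443288_at (-0.24 to 0.34) and the disagreement of the Traf6 probe sets (-0.40 to 0.32). The cause was not tested.

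Member probe sets past the threshold numbered 0 in every setting with all arrays and 0 to 1 with 1 array left out; pathway probe sets past it numbered 0 and 0 to 3, and genes whose probe sets disagreed 0 and 0 to 1 (Pcnt, without deficient replicate 2). Over all probe sets, 45 passed: 4 without a filter, where more probe sets share the adjustment, 0 in limma without the intensity trend (1651 with an unadjusted p below 0.05), 29 to 140 with 1 array left out, and 71 with the replicate block. Same-numbered arrays deviated together with r = 0.0409 across probe sets, which cannot show whether they shared a preparation, and the labels name none. The 3′ to 5′ ratios of the transferrin receptor, Gapdh and beta-actin were higher in replicate 2 than in replicate 1 of each genotype. With the replicate block Irak1 1438120_x_at had -1.03 and an adjusted p of 0.317 in limma.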
